A study of Mus musculus with 4 samples.

Results

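Secondary and tertiary neutrophil granule genes were followed in CD11b+ splenocytes from mice under repeated social threat and from control mice. The group holds 10 genes: Ltf, Camp, Ngp, Lcn2, Mmp8, Mmp9, Cd177, Olfm4, Chil1 and Itgb2l. Its members were all probe sets that the platform annotation assigns to exactly 1 of these symbols, 13 of the 45037 probe sets on the array and 10 of the 18193 genes with a probe set of their own. Each of the 4 Affymetrix MOE430 2.0 arrays, on which many genes have more than 1 probe set, held the pooled total RNA of 5 mice. There were 2 pools labelled HighThreat (social threat) and 2 labelled LowThreat (control). All pools were CD11b+ spleen cells. No strain, age, duration of exposure or array batch is given in the sources used here, and pooling hides the spread between single mice.

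Neutrophil granules are made in a sequence while the cell matures. Azurophilic or primary granules form first, in promyelocytes. Specific or secondary granules follow in myelocytes and metamyelocytes, and gelatinase or tertiary granules later, in band cells. The messenger RNA of a granule protein is mostly made in the stage that fills the granule, and circulating neutrophils carry the protein with less of the message. In mice the red pulp of the spleen can also produce granulocytes.

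All 10 genes were higher after social threat, and each of them passed the test. Expression is given as log2 RMA values, on which a difference of 1 is a doubling. The median log2 fold change of the 10 genes was 1.00, against -0.02 over all 18193 genes, and the range ran from 0.54 for Ngp to 2.42 for Itgb2l. The word rose is used of probe sets with a limma p-value under 0.05 after Benjamini-Hochberg adjustment over all probe sets. By that rule 9.4% of all genes rose and 11.7% fell, 1710 and 2122 genes. These numbers were 910 and 1021 without social threat pool 1, and 946 and 914 without social threat pool 2, and the 10 members rose in both of those fits. Among the 3035 genes whose mean over the 4 pools was at least that of the dimmest member, a comparison added after the values were seen, 22.9% rose. In each of the 10 genes both social threat pools lay above both control pools, which held for 26.1% of all genes. Both conditions of the size rule, a 1.5-fold difference and no overlap, were met by 8 of the 10 genes and by 3.91% of all genes.

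**Figure D1:**
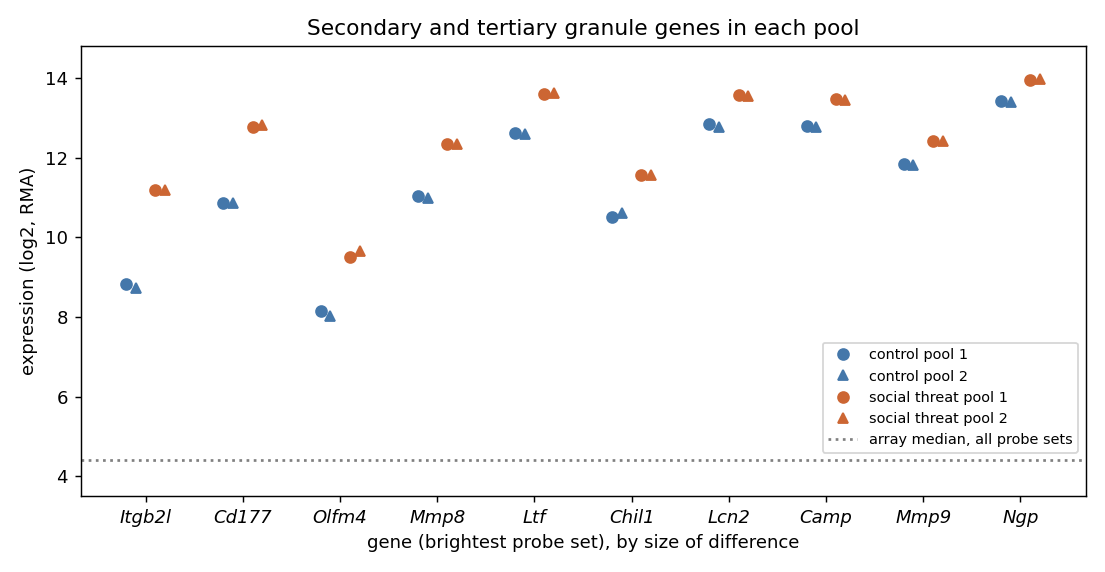
Log2 RMA expression of the 10 genes in each of the 4 pools (blue, control; orange, social threat; circles, pool 1; triangles, pool 2), ordered by the size of the difference, with the array median as a dotted line. The pools of a group lie close together and the groups do not overlap for any gene; Itgb2l has the widest gap, from 8.77 to 11.19, and Ngp the narrowest, from 13.41 to 13.95.

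RefSeq promoters were available for 9 of the 10 genes, all but Mmp9, on the GRCm38.p6 assembly. The 250 bases before the start of the gene are shown for the members with the largest rises, Itgb2l and Cd177, and for those with an entry that rose least, Camp and Ngp, since the genes moved together by different amounts. Capitals mark matches on either strand to TTNNGNAA, a loose form of the site of C/EBP factors, and to GAGGAA, the core of the site of PU.1. C/EBP-epsilon is required for secondary granule genes, and PU.1 is a master factor of myeloid cells. The Itgb2l window is chr16:96443615-96443864, the Cd177 window chr7:24760312-24760561 and the Camp window chr9:109849457-109849706, all on the minus strand, and the Ngp window is chr9:110419558-110419807 on the plus strand.
Itgb2l: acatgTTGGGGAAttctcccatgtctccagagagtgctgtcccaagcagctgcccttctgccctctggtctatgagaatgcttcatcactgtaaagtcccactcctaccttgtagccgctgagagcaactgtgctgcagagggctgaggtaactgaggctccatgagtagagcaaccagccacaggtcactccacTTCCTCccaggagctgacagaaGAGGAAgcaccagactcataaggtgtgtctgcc
Cd177: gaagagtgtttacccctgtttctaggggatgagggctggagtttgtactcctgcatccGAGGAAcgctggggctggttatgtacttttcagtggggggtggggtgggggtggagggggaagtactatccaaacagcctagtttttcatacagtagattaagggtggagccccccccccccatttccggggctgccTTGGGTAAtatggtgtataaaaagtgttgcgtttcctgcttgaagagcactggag
Camp: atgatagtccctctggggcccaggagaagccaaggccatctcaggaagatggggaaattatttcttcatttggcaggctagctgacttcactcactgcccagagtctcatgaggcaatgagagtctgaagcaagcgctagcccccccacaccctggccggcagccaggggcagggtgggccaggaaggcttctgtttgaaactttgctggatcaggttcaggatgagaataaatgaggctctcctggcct
Ngp: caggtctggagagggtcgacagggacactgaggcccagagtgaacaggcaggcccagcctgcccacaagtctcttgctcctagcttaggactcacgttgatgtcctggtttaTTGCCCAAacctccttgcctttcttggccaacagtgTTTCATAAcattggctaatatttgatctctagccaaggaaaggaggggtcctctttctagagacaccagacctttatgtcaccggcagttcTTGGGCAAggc

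The motifs were chosen after the promoters were seen, so the shares below only describe these windows. Control of the members by these factors was not tested. TTNNGNAA was present in 8 of the 9 windows, against 36.8% of 32851 RefSeq promoter windows of the same length. Ngp had 3 matches, Ltf and Mmp8 had 2 each, and Lcn2, Cd177, Olfm4, Chil1 and Itgb2l had 1 each. The match of Ngp nearest to the start began 11 bases before it, and that of Cd177 began 55 bases before it. GAGGAA was present in 6 of the 9 windows, those of Ltf, Lcn2, Mmp8, Cd177, Olfm4 and Itgb2l, against 23.3% of all windows. Itgb2l had 2 such matches, which began 55 and 33 bases before the start. Camp had no match to either motif in this window. TATAA, a form of the TATA box that is not capitalised here, was in 3 windows (Cd177, Olfm4 and Chil1), against 22.8% of all windows. No match to one motif overlapped a match to another in these windows.

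Among the 10 genes, Ltf, Lcn2, Camp and Ngp encode antimicrobial cargo of specific granules, and all 4 rose. Ltf encodes lactoferrin, which binds iron. Its level was 12.61 and 12.59 in the control pools and 13.58 and 13.62 in the social threat pools. The difference was 1.00 (SE 0.02), a 2.00-fold rise (limma adjusted p = 2.91e-08). Lcn2, lipocalin 2, captures the siderophores with which bacteria take up iron. It stood at 12.85 and 12.76 in control pools and at 13.56 and 13.55 after social threat, a rise of 0.75 (SE 0.03) or 1.68-fold (limma adjusted p = 4.26e-07). The gap between the control pools of Lcn2 was 0.09, small beside the 0.70 that separated the lower threat pool from the higher control pool.

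Camp encodes the precursor of the mouse cathelicidin, a membrane-disrupting peptide. It read 12.79 and 12.78 in control pools and 13.48 and 13.45 in social threat pools, a rise of 0.68 (SE 0.02) or 1.60-fold (limma adjusted p = 1.61e-07). Ngp, neutrophilic granule protein, is related to the cathelicidins. Its control pools were at 13.43 and 13.40 and its threat pools at 13.95 and 13.96, a rise of 0.54 (SE 0.02) or 1.45-fold (limma adjusted p = 2.68e-07). It is one of the 2 members under 1.5-fold, with Mmp9. The highest value on any array was 14.25, so Ngp lay close to the upper end of the scale in both groups. Whether the scale compressed its difference was not tested.

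The matrix metalloproteases mark different granules. Mmp8, neutrophil collagenase, belongs to specific granules. It rose from 11.03 and 10.98 to 12.35 and 12.34, by 1.34 (SE 0.03) or 2.53-fold (limma adjusted p = 3.88e-08). Mmp9, gelatinase B, is the enzyme after which gelatinase granules are named. Its brighter probe set read 11.85 and 11.81 in control pools and 12.41 and 12.40 in threat pools, a rise of 0.58 (SE 0.03) or 1.49-fold (limma adjusted p = 1.74e-06). The other Mmp9 probe set went from 11.38 and 11.34 to 12.21 and 12.24, a rise of 0.86 (SE 0.03) or 1.82-fold (limma adjusted p = 3.41e-07). Both probe sets of Mmp9 rose with no overlap between groups, and their 95% intervals, 0.51 to 0.64 and 0.79 to 0.93, did not overlap, so the size of the Mmp9 rise differs with the probe set.

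The surface proteins had the largest differences of the group. Itgb2l encodes an integrin beta chain similar to the beta-2 chain that pairs with CD11b. Its brightest probe set read 8.82 and 8.72 in control pools and 11.18 and 11.20 in threat pools, a rise of 2.42 (SE 0.05) or 5.35-fold (limma adjusted p = 1.99e-08). The other 2 Itgb2l probe sets lay below the array median in control pools, at means of 3.93 and 3.43, and were not called. They differed by 0.21 (SE 0.11, limma adjusted p = 0.297) and -0.04 (SE 0.10, limma adjusted p = 0.868). As the mean of its 3 probe sets Itgb2l rose by 0.86. Cd177, a glycolipid-anchored protein of the neutrophil surface and of specific granule membranes, read 10.86 in both control pools and 12.77 and 12.82 in threat pools. Its rise was 1.94 (SE 0.03) or 3.83-fold (limma adjusted p = 5.95e-09).

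Olfm4 encodes olfactomedin 4, a specific granule glycoprotein found in only some neutrophils. It read 8.15 and 8.03 in control pools and 9.50 and 9.66 in threat pools, a rise of 1.49 (SE 0.08) or 2.80-fold (limma adjusted p = 2.05e-06). Its pools differed more within a group than those of the other members, by 0.12 in control and 0.16 after threat, and still by far less than the 1.35 between the groups. Chil1 encodes a chitinase-like lectin without chitinase activity. It went from 10.50 and 10.61 to 11.55 and 11.55, a rise of 1.00 (SE 0.04) or 2.00-fold (limma adjusted p = 8.79e-07).

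**Figure D2:**
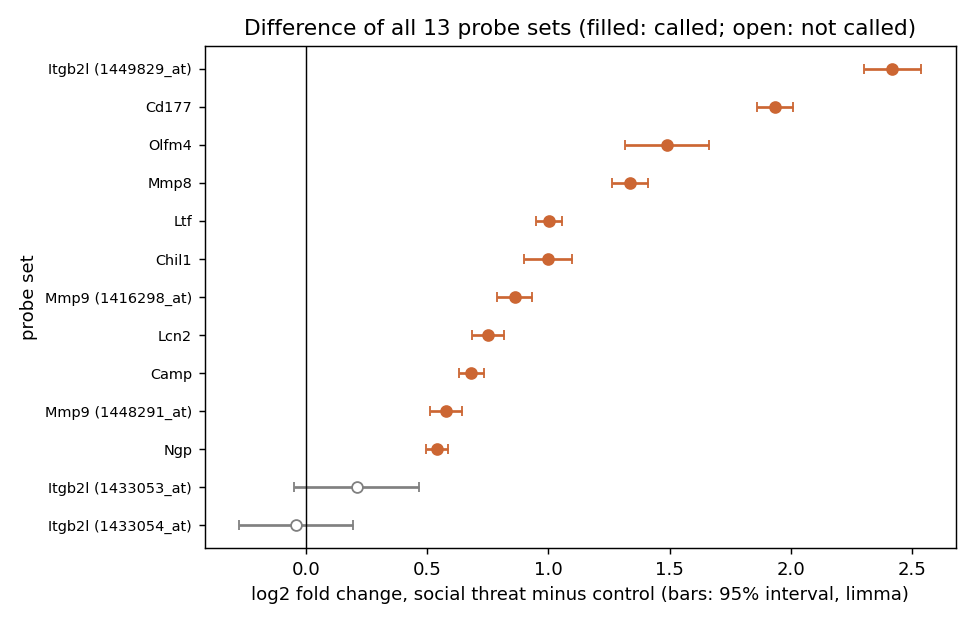
Log2 fold change (social threat minus control) of the 13 probe sets with 95% intervals from limma; filled points were called and open points were not. Of the points, 11 lie at 0.54 or above, and the intervals of the 2 dim Itgb2l probe sets include 0.

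Over probe sets, 11 of 13 rose and 0 fell, where 7.09% of all probe sets rose. In order of the log2 fold change of the brightest probe set the genes were Itgb2l, Cd177, Olfm4, Mmp8, Ltf, Chil1, Lcn2, Camp, Mmp9 and Ngp. The places of Itgb2l and Mmp9 depend on the probe set. As the mean of its probe sets Itgb2l stood at 0.86, below Chil1, and the other Mmp9 probe set stood at 0.86, above Lcn2. The 95% intervals of neighbours overlapped between Olfm4 and Mmp8, between Ltf and Chil1, and along the series from Lcn2 through Camp and Mmp9 to Ngp. They did not overlap between Itgb2l (2.30 to 2.54) and Cd177 (1.86 to 2.01), between Cd177 and Olfm4 (1.31 to 1.66), between Mmp8 (1.26 to 1.41) and Ltf, or between Chil1 and Lcn2. Over the brightest probe sets of the 10 genes, the log2 fold change was lower where the control level was higher (Pearson's r = -0.77, Spearman's rho = -0.78, on the same 4 arrays). The 2 dim Itgb2l probe sets were left out and do not follow this relation, with control means of 3.93 and 3.43 and differences of 0.21 and -0.04. The relation is a description, since the control level enters both quantities and the brightness of different probe sets does not compare amounts of RNA. The pools of a group lay close together, with a median gap over the 10 genes of 0.04 between control pools and 0.02 between threat pools, against 0.10 and 0.08 over all genes. These gaps were not matched for brightness. The median control level of the members was 11.42, while the median of all genes was 5.44 and 5.41 in the control pools.

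The members were next set beside other genes of neutrophil granules and of granulocyte maturation. The primary granule list, made before these granules, had 5 of 6 measured genes rise and 0 fall, with a median of 3.94. Its proteases Ctsg, Elane and Prtn3 and its peroxidase Mpo rose by 3.58 to 4.85. Srgn, the proteoglycan that packs granule proteins, differed by -0.04 (SE 0.02) and was not called. Ctsc, which activates these proteases, rose by 0.15 (SE 0.03), and was not called without the variance trend or without either social threat pool, where 4 of 6 rose. Of 3 Ctsc probe sets 1 rose and 0 fell. After quantile normalization of the deposited values Srgn fell by 0.08. Of 24 other genes of specific and gelatinase granules, 12 rose and 1 fell, with a median of 0.19. Fcnb, a ficolin that recognises microbial sugars, rose by 2.18 (SE 0.06), Qsox1, a sulfhydryl oxidase, by 1.76 (SE 0.07), Orm1, orosomucoid, by 1.45 (SE 0.08) and Pglyrp1, which binds peptidoglycan, by 1.17 (SE 0.03). Of 4 Qsox1 probe sets 2 rose and 0 fell. The cytochrome b558 subunits Cybb and Cyba, which sit in specific granule membranes, rose by 0.31 (SE 0.03) and 0.21 (SE 0.03).

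Some cargo of these granules was not called. Lysozyme is stored in several kinds of granule and made by macrophages too, and Lyz2 read 13.60 and 13.68 in control pools and 13.72 and 13.69 in threat pools, with no call. Slpi, a protease inhibitor of specific granules, differed by 0.02 (SE 0.03) and Plaur, the urokinase receptor, by -0.01 (SE 0.04), with no call for either. Slc11a1, a metal transporter of gelatinase granules, fell by 0.23 (SE 0.04). It was the 1 fall of that list, and it was not called without the variance trend or without either social threat pool. Without the variance trend 8 genes of the list rose. Genes of secretory vesicles and of the mature neutrophil, formed last, had 5 rises and 2 falls among 10, with a median of 0.04. Anxa1 and Fpr2, which encode annexin A1 and one of its receptors, rose by 0.61 (SE 0.03) and 0.57 (SE 0.03), and Cxcr2, the receptor that draws neutrophils out of the marrow, by 0.45 (SE 0.08). Il1r2, the decoy receptor of interleukin 1, and Csf3r, the G-CSF receptor, fell by 0.20 (SE 0.03) and 0.14 (SE 0.03). These differences are small, and without the variance trend 2 genes of the list rose and 0 fell. Without social threat pool 1, 3 rose and 2 fell, and without social threat pool 2, 4 rose and 1 fell.

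**Figure D3:**
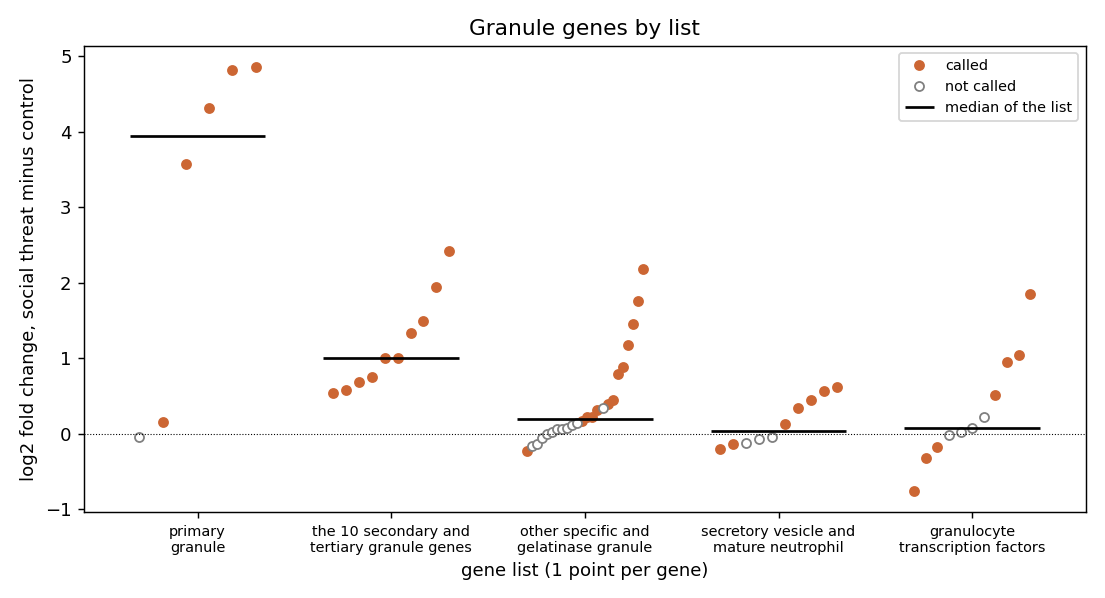
Log2 fold change (social threat minus control) of each measured gene in 5 lists, with called genes filled and the list median as a line. The medians are 3.94 for primary granule genes, 1.00 for the 10 secondary and tertiary granule genes, 0.19 for other specific and gelatinase granule genes, 0.04 for secretory vesicle and mature neutrophil genes and 0.08 for granulocyte transcription factors.

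Of 11 measured granulocyte transcription factors, 4 rose and 3 fell. Gfi1, a repressor needed for neutrophil differentiation, read 5.94 and 5.92 in control pools and 6.94 and 6.83 in threat pools, a rise of 0.95 (SE 0.10). Klf5 rose by 1.84 (SE 0.09), Myb, a factor of progenitors, by 1.04 (SE 0.07) and Cebpd by 0.51 (SE 0.05). Of 3 Klf5 probe sets 2 rose and 0 fell, and of 2 Cebpd probe sets 1 rose and 0 fell. Cebpa, which acts at the start of the granulocyte path, fell by 0.33 (SE 0.08) and Lef1 by 0.76 (SE 0.11). Spi1, which encodes PU.1, differed by 0.08 (SE 0.03) with no call. The brighter Cebpb probe set differed by -0.02 (SE 0.03) with no call, and the other fell by 0.20 (SE 0.04, limma adjusted p = 0.00408). With the probe set of smallest p in place of the brightest the list had 4 falls. Cebpe had no probe set of its own in the annotation used and was not analysed here. The 4 rises were also counted without either social threat pool and without the variance trend, but 1 fall in place of 3.

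Of 17 measured partners and inhibitors of the member proteins, 4 rose and 3 fell. Reck, a membrane-anchored inhibitor of metalloproteases that include Mmp9, read 6.58 and 6.62 in control pools and 8.80 and 8.83 in threat pools, a rise of 2.22 (SE 0.08). Timp2, a soluble inhibitor of the same enzymes, rose by 0.29 (SE 0.05). Of its 6 probe sets 3 rose and 0 fell. Timp2 was not called without the variance trend (limma adjusted p = 0.0845) or without either social threat pool. Timp1 lay below the array median in all pools with no call. Itgax, which encodes CD11c, an integrin alpha chain that pairs with beta-2 and a marker of dendritic cells, had the largest fall of this list, by 0.89 (SE 0.05). Pecam1, the adhesion protein to which CD177 binds, fell by 0.59 (SE 0.09). Slc22a17, a receptor for lipocalin 2, differed by 0.01 (SE 0.13) with no call, and Fpr2, a receptor for the cathelicidin peptide, is given above. Tmem219, a receptor component for the Chil1 protein, fell by 0.33 (SE 0.07). Without social threat pool 1 the counts were 3 rises and 1 fall, that of Itgax. Tmem219 was also not called without social threat pool 2, without the variance trend or when its probe sets were averaged (-0.01).

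Relatives of the members by sequence family did not share their direction as a group, with 5 rises and 5 falls among 23. Itgb2, the beta-2 integrin chain, rose by 0.22 (SE 0.03), against 2.42 for Itgb2l. Itgb7 and Itgb1 fell by 0.45 (SE 0.06) and 0.19 (SE 0.05), and of 6 Itgb1 probe sets 2 fell and 0 rose. Chil3, a chitinase-like protein of neutrophils and monocytes, rose from 12.70 and 12.74 to 13.29 and 13.34, by 0.59 (SE 0.03). Olfm1 fell by 0.37 (SE 0.07), against the rise of 1.49 in Olfm4, and of 3 Olfm1 probe sets 1 fell and 0 rose. Among other metalloproteases Mmp19 and Mmp14 rose by 0.72 (SE 0.11) and 0.66 (SE 0.13), while Mmp12, the macrophage elastase, fell by 1.81 (SE 0.11). Of 3 Mmp14 probe sets 1 rose and 0 fell. Without social threat pool 1 the list had 3 rises and 4 falls, and without social threat pool 2 it had 3 rises and 2 falls. Without the variance trend it had 4 rises and 3 falls.

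The positions of the genes were taken from the order of protein-coding genes in RefSeq. Of the 10 genes, 4 lie on chromosome 9 (Mmp8, Camp, Ngp and Ltf), which holds 5.49% of protein-coding genes. Camp and Ngp are separated by 8 protein-coding genes, and Ngp and Ltf by 20. Of the 26 measured genes in that interval other than the members, 2 rose and 3 fell, with a median of -0.01. The rises were Cdc25a, a cell cycle phosphatase next to Camp, by 1.57, and Nbeal2 by 0.29. The levels of the 26 genes are not given here, and background limits the fold changes of any that are dim. Mmp8 lies in a cluster of metalloprotease genes. Its measured neighbours on either side, Mmp10 and Mmp20, differed by 0.08 and 0.03 with no call, and Mmp12 and Mmp13 of the same cluster fell by 1.81 and 0.58. Mmp10 and Mmp13 lay below the array median in all pools, at control means of 3.56 and 4.31, where background limits the fold changes.

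**Figure D4:**
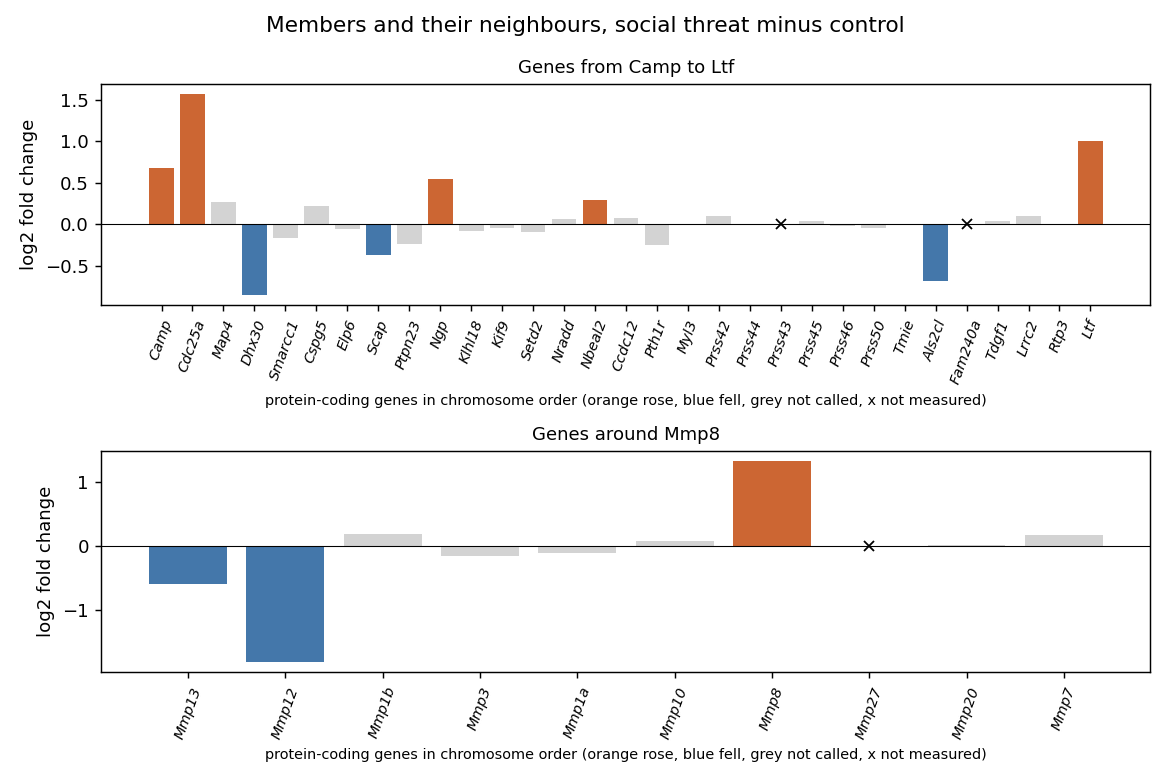
Log2 fold change (social threat minus control) of protein-coding genes in chromosome order, from Camp to Ltf (top) and in the metalloprotease cluster around Mmp8 (bottom); orange bars rose, blue bars fell, grey bars were not called and crosses were not measured. In the top panel Camp, Ngp and Ltf stand at 0.68, 0.54 and 1.00, and the measured genes between them have a median of -0.01. In the bottom panel Mmp8 is at 1.34 and Mmp12 at -1.81.

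Over the 3 nearest measured genes on each side of every member, 60 in all, 10 rose (16.7%) and 9 fell (15%), beside 9.4% and 11.7% of all genes. The gene after Cd177, Ceacam10, a carcinoembryonic antigen-related gene, rose by 2.23, beside 1.94 for Cd177. On the other side of Cd177, Ethe1 rose by 1.05, but it is the farthest of the 3 measured genes there. The nearer Lypd3 and Tex101 differed by 0.04 and -0.13 with no call. Beyond Ceacam10, Lypd4 and Dmrtc2 differed by -0.09 and -0.03 with no call. None of the 6 nearest measured genes of Itgb2l was called, among them Igsf5 at -0.12 and Pcp4 at -0.14. These neighbours were named after their values were seen.

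The members' median profile was compared with genes outside the group whose brightest probe set had a mean above the median of all probe sets. The 6 genes whose 4 pool values, each less its control mean, lay nearest to it were Krt83, Cpne2, Apmap, Dgat2, H2ax and Ppbp. Their root mean square distances over the 4 pools were 0.01 to 0.03 log2 units. With 4 pools in 2 groups this likeness rests on the size of the difference, which was 0.97 to 1.01 in these genes.

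Genes of CD11b+ cells read well above the array median in all pools, though RMA makes no call of presence. Itgam, the antigen of the isolation, read 10.47 and 11.01 in control pools and 11.64 and 11.59 in threat pools, a rise of 0.88 (SE 0.13). Its control pools lay 0.54 apart, and the difference was 0.61 without control pool 1 and 1.15 without control pool 2. With the robust form of the limma moderation Itgam was not called (limma adjusted p = 0.163). Of 8 measured genes of a CD11b and myeloid list, 3 rose and 1 fell, Csf1r by 0.26 (SE 0.03). Without the variance trend 1 rose and 0 fell. All 8 stood above the array median, and their summed level (on the log2 scale) was 15.72 to 15.77 in control and 15.81 in both threat pools. That of the members was 15.31 to 15.34 in control and 16.20 to 16.21 after threat, and that of secretory vesicle and mature neutrophil genes 15.11 to 15.14 and 15.32 to 15.34. Such sums add probe sets of unequal response and serve only to set pools against each other. In bulk RNA a larger share of cells that express a gene and more of its RNA per cell cannot be told apart.

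Other lists moved in the same pools. Cell cycle genes rose for 12 of 14, with summed levels of 12.81 to 12.85 in control and 13.68 to 13.71 after threat, and erythroid genes for 7 of 9, at 9.91 to 10.03 and 10.97 to 11.03. Platelet genes rose for 5 of 6, at 9.08 to 9.16 and 9.95 to 9.97. B cell genes fell for 8 of 9, at 11.93 to 11.96 and 10.91 to 10.96, T cell genes for 9 of 9, at 10.51 to 10.58 and 9.53 to 9.57, and NK cell genes for 6 of 9, at 11.15 to 11.25 and 10.43 to 10.49. Conventional dendritic cell genes fell for 9 of 9, at 12.46 to 12.48 and 11.20 to 11.28. Red pulp macrophage genes fell for 8 of 10 and rose for 1, at 13.92 to 13.94 and 13.56 to 13.57. Among monocyte genes 4 of 9 fell and 1 rose, at 14.82 to 14.83 and 14.59 to 14.61, and eosinophil genes fell for 2 of 5, at 9.07 to 9.09 and 8.34 to 8.44. These counts depend on the number of pools. With either social threat pool left out, fewer cell cycle, platelet, T cell, NK cell, conventional dendritic cell, red pulp macrophage and eosinophil genes were called. None of these defining genes is listed at 0, since the scale starts at 2.26. The part of these shifts in the rises of the granule genes was not tested.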

How the data were processed

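Gene expression was measured on 4 Affymetrix MOE430 2.0 arrays, 2 pools per group. Per the submitters' processing notes the values were made with RMA (background correction, quantile normalization, summary per probe set), and the deposited values are log2 expression from 2.26 to 14.25, with array medians of 4.41 to 4.43. RMA shrinks differences between dim values and makes no call of presence. Scanner files were not used here.

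Of 45037 probe sets, 34945 had exactly 1 symbol, 932 had several and 9160 were not listed. Each gene is represented by the brightest of its probe sets (mean of all pools). The groups were compared with limma 3.58.1 in R 4.3.3 (lmFit, eBayes with a mean-variance trend, 2 residual and 7.1 prior degrees of freedom), two-sided, over all probe sets. With 2 pools per group an exact two-sided permutation test cannot give a p below 0.333, so the p-values rest on variance shared between probe sets and measure the spread between pools only. The code was tested on simulated data. A first simulation, in which each probe set kept its own SD over 2 pools, missed the recovery required at the larger fold sizes. A second one with limma's moderated SDs, more favourable, was then added, and the requirement was applied to it alone. The members and lists were chosen with earlier results of these data known. Named genes were all members, and from each list up to 5 called genes by size and up to 3 not called, plus the genes of the design named whatever their values. Of those, Ly6g, Trf and Cebpe had no probe set of their own. Cybb, Cyba, Slc11a1, Csf3r, Cebpa, Tmem219, Itgb1, Itgb7, Olfm1, Mmp13 and the chromosomal neighbours were named after their values were seen, and the motifs were chosen after the promoters were seen. Alternatives covered the moderation, a filter on dim probe sets, scaling, the pool number as a block, each pool left out and the probe set that stands for a gene. Promoter sequences came from RefSeq (GRCm38.p6), and gene order from the same assembly.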

Additional observations from a re-analysis of the deposited data

How the results depend on the processing

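All 10 members stayed called higher under each of the 12 alternatives run for them, and none changed direction. Their highest adjusted p was 0.0106, for Ngp without the variance trend. The number of called probe sets over the whole table, 7099, was 4689 without the variance trend, and 3171 to 8721 when 1 pool was left out: 3171 without social threat pool 2, 3341 without social threat pool 1, and more than with all pools when a control pool was left out. Over all genes, 1145 rose and 1386 fell without the variance trend. The median log2 fold change of the members was 0.98 to 1.02 with 1 pool left out and 0.93 when the probe sets of a gene were averaged, where Itgb2l stood at 0.86 because 2 of its 3 probe sets were dim. Where a pool was left out, the lone pool of its group is assumed to vary like the others. With the pool number as a replicate block 8168 probe sets were called and all 10 members rose. Deviations of same-numbered pools correlated at r = 0.05 over probe sets, and the pool number served as a block only in this alternative. With 2 pools per group, differences within the spread of the pools could not be resolved, and the fold changes of dim probe sets are limited by background.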
